A study of Mastomys natalensis with 3 samples.

Results

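The contractile genes of smooth muscle were followed through 3 arrays of Mastomys natalensis gastric cells. Members were the 8 genes Acta2, Actg2, Tagln, Myh11, Tpm1, Tpm2, Des and Cnn1, and every probe set whose platform annotation gave 1 of these symbols alone was used. A probe set is a group of short probes that report 1 transcript. These were 17 of the 7006 probe sets with 1 symbol, so 8 of 4736 genes. The groups were animals with a spontaneous gastric carcinoid of enterochromaffin-like (ECL) cells, animals given loxtidine for 16 weeks and animals given loxtidine for 8 weeks. ECL cells are endocrine cells of the stomach that store histamine, and loxtidine blocks the histamine receptor through which acid secretion is driven. Each group had 1 array, and the labels call every sample a population enriched for ECL cells. There was no untreated or healthy sample among these arrays. The labels give neither the age of the animals nor how many were pooled.

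Smooth muscle contracts when myosin, activated through its light chain, pulls on actin filaments that carry tropomyosin and are regulated by proteins such as calponin. In the stomach the main source of these proteins is the muscle wall, and thinner strands of smooth muscle also lie under and between the glands and around vessels. Alternative promoters and splicing give tropomyosin 1 muscle and non-muscle forms, so it is not confined to muscle. Bulk RNA does not separate fewer cells of a type from less RNA per cell, and the 2 cannot be told apart in any value below.

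Values are intensities on a linear scale after quantile normalization, which gives the 3 arrays the same distribution. They are relative to the other transcripts of the same array. The floor was 12.4, the pooled median of all 8740 non-control probe sets. A value below it was raised to it before a fold was taken, so that a fold with 1 array below the floor is a bound, written "at least". No fold is given where both arrays were below it. Rat probes met Mastomys RNA, and how well each probe matches was not measured, so a probe set was compared only with itself. A single array per group leaves no estimate of error between samples, so no p-value is given. The spread between the 2 brightest probe sets of a gene, taken as the root mean square SD of the pair's log2 differences, holds no variation between animals. For carcinoid against 16 weeks it was 0.62 over 457 genes, for carcinoid against 8 weeks 0.82 over 395 genes, and for 16 against 8 weeks 0.79 over 410 genes.

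The arrays themselves differed. The 3' to 5' ratio of the GAPDH control was 2.31 in carcinoid, 1.43 at 16 weeks and 8.95 at 8 weeks, and that of beta-actin was 11.7, 6.71 and 16.1 in the same order. The source field names gastric mucosa for the carcinoid and 16-week samples and ECL cells for the 8-week sample. Lot labels differ between all arrays, and an effect of the lot cannot be told apart from the group. The deposited values of all non-control probe sets were shifted by a median log2 difference of 0.45 for carcinoid against 8 weeks, 0.42 for 16 against 8 weeks and 0.06 for carcinoid against 16 weeks. Hdc, the histamine-forming enzyme that defines ECL cells, lay below the floor on every array (normalized intensity 3.2 in carcinoid, 4.77 at 16 weeks and 4.43 at 8 weeks). The monoamine transporter Slc18a2, the other marker of histamine storage, was at or above it on each (23.2, 42.3 and 21.8 in the same order). Background was read from 38 controls whose targets should be missing here. Their highest value was 48.0 in carcinoid, 29.1 at 16 weeks and 44.8 at 8 weeks, and 9, 9 and 8 of them lay at or above the floor.

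Most of the contractile genes were close to the background of these arrays. Of the 17 probe sets, 7 were below the floor on all 3 arrays, with normalized intensities of 0.867 to 5.87. Another 6 were at or above the floor on some arrays, and 4 were at or above it on all 3. All 4 of the last kind belonged to Tpm1. Over all non-control probe sets, 29.2% were below the floor on every array and 30.5% were at or above it on every array, against 41.2% and 23.5% of the contractile probe sets. The floor was reached by 8 of 17 member probe sets in carcinoid, 9 at 16 weeks and 6 at 8 weeks. Of the members, Tpm1 alone exceeded every no-target control of its own array, with 3 probe sets in carcinoid, 4 at 16 weeks and 2 at 8 weeks. No member specific to smooth muscle passed that level on any array.

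**Figure D1:**
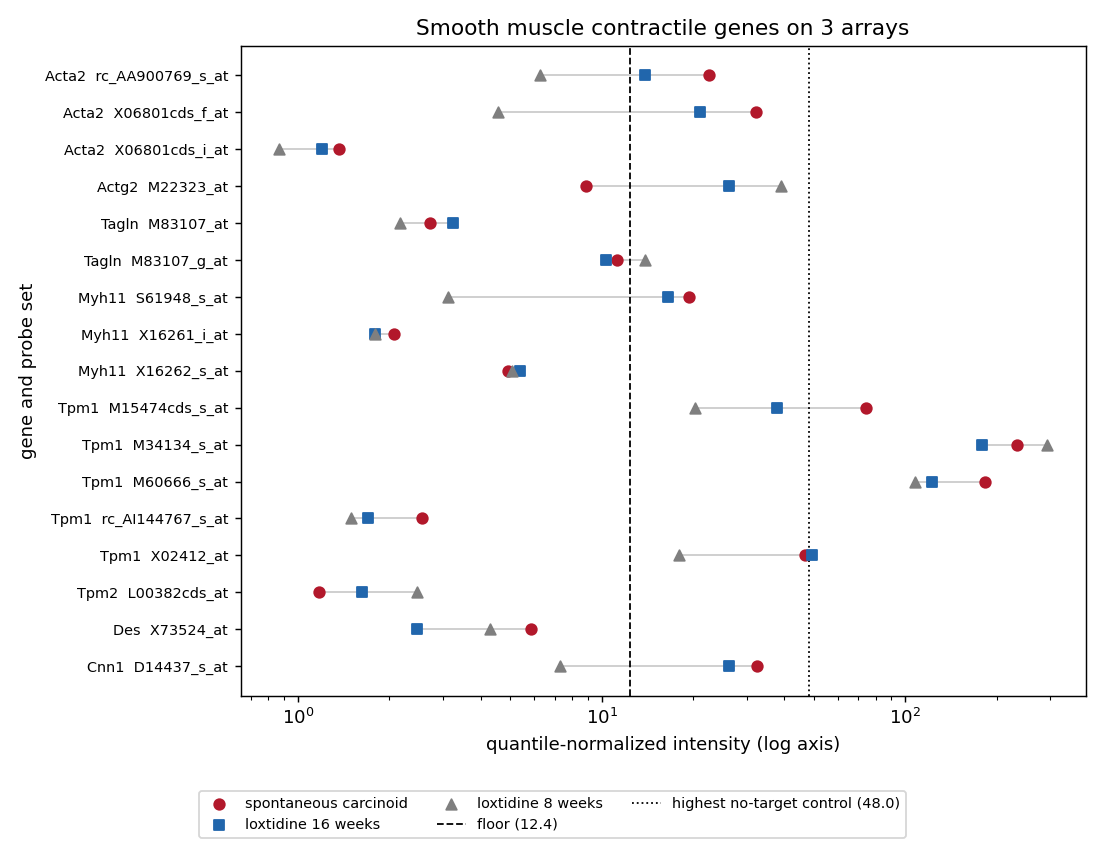
Quantile-normalized intensity (log axis) of the 17 probe sets of the 8 contractile genes, 1 point per array, with the floor of 12.4 (dashed) and the highest value of any no-target control, 48.0 (dotted). The 4 Tpm1 probe sets are the only ones at or above the floor on all 3 arrays, and Actg2 runs opposite to Acta2.

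Tropomyosins wind along the actin filament and gate its contact with myosin. The Tpm1 probe set M15474cds_s_at read 74.2 in carcinoid, 37.8 at 16 weeks and 20.3 at 8 weeks. It was 1.96-fold higher in carcinoid than at 16 weeks, 3.66-fold higher in carcinoid than at 8 weeks and 1.86-fold higher at 16 than at 8 weeks. Carcinoid was thus the highest array of this probe set and 8 weeks the lowest.

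The Tpm1 probe set M60666_s_at had the same order with smaller steps, at 183 in carcinoid, 122 at 16 weeks and 108 at 8 weeks. Its folds were 1.5 for carcinoid over 16 weeks, 1.7 for carcinoid over 8 weeks and 1.13 for 16 over 8 weeks. The value against 8 weeks crossed 2-fold under other scalings, with a log2 difference for carcinoid of 0.76 here, 1.11 with scaling by the median and 1.55 as deposited (225.2 in carcinoid and 76.7 at 8 weeks). X02412_at read 46.7 in carcinoid, 49.3 at 16 weeks and 18.0 at 8 weeks. Carcinoid and 16 weeks were within 1.06-fold of each other there, and as deposited their order turned (53.9 in carcinoid and 52.7 at 16 weeks). Against 8 weeks the same probe set was 2.59-fold higher in carcinoid and 2.74-fold higher at 16 weeks.

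M34134_s_at, the last Tpm1 probe set with signal on all arrays, read 234 in carcinoid, 179 at 16 weeks and 293 at 8 weeks. It was 1.31-fold higher in carcinoid than at 16 weeks. Its direction against 8 weeks depended on the scaling. After quantile normalization its log2 difference was -0.32 for carcinoid against 8 weeks, but it was 0.16 with scaling by the median and 0.60 as deposited. For 16 against 8 weeks it was -0.71, -0.36 with scaling by the median and 0.00 as deposited, where it read 194.6 at 16 weeks and 194.4 at 8 weeks. The fifth Tpm1 probe set, rc_AI144767_s_at, was below the floor throughout (2.57 in carcinoid, 1.7 at 16 weeks and 1.5 at 8 weeks).

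The 4 measured Tpm1 probe sets therefore did not give 1 answer for the gene. Their log2 differences ran from -0.32 to 1.87 for carcinoid against 8 weeks (median 1.07, SD 0.95 over 4 probe sets) and from -0.71 to 1.45 for 16 against 8 weeks (median 0.54, SD 0.94). For carcinoid against 16 weeks the range was narrower, -0.08 to 0.97 (median 0.49, SD 0.44). The first 2 of these SDs lie somewhat above the spread between probe sets of a gene given above (0.82 and 0.79), and the third lies below it (0.62). That spread comes from the 2 brightest probe sets of each gene and these SDs from 4. An unusual disagreement in Tpm1 is therefore not shown. The sources used here do not say which Tpm1 transcript form each probe set reads. Tpm2, the other tropomyosin among the members, had 1 probe set, and it was below the floor on every array (1.17 in carcinoid, 1.63 at 16 weeks and 2.47 at 8 weeks).

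The smooth muscle actins had opposite orders of arrays. Acta2 encodes the alpha actin of vascular and visceral smooth muscle, which myofibroblasts also make, and Actg2 encodes the gamma actin that prevails in the gut wall. The Acta2 probe set X06801cds_f_at read 32.2 in carcinoid, 21.1 at 16 weeks and 4.57 at 8 weeks. It was 1.53-fold higher in carcinoid than at 16 weeks. Against the 8-week array, where it lay below the floor, it was at least 2.6-fold higher in carcinoid and by at least 1.7-fold at 16 weeks.

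The Acta2 probe set rc_AA900769_s_at kept the same order of arrays with 22.6 in carcinoid, 13.9 at 16 weeks and 6.27 at 8 weeks. It was 1.63-fold higher in carcinoid than at 16 weeks, and against 8 weeks at least 1.82-fold higher in carcinoid and at least 1.12-fold higher at 16 weeks. The third, X06801cds_i_at, made from the same sequence as X06801cds_f_at, was below the floor on all arrays (1.37 in carcinoid, 1.2 at 16 weeks and 0.867 at 8 weeks). Suffixes in these names matter here. A probe set ending in f is shared by a gene family, one in s or g can match related transcripts, and one in i has fewer probes than usual. Actins are closely related in sequence, so the X06801cds_f_at signal cannot be assigned to Acta2 alone.

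Actg2 was read by the single probe set M22323_at, at 8.9 in carcinoid, 26.3 at 16 weeks and 39.0 at 8 weeks. It was at least 2.12-fold lower in carcinoid than at 16 weeks and at least 3.15-fold lower in carcinoid than at 8 weeks. Between the loxtidine arrays it was 1.48-fold lower at 16 weeks, and 1.09-fold lower as deposited (28.1 at 16 weeks and 30.6 at 8 weeks). The log2 difference of Acta2 minus that of Actg2 was at least 1.70 to 1.79 for carcinoid against 16 weeks and at least 2.52 to 3.03 for carcinoid against 8 weeks, over X06801cds_f_at and rc_AA900769_s_at. These are bounds, because Actg2 in carcinoid and Acta2 at 8 weeks lay below the floor. All of these actin values lie within the range of the no-target controls of their own arrays, and no test of the contrast was possible with 1 array per group.

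Another 4 probe sets carry the symbols of Acta2 and of the cardiac actin Actc1 together and were kept out of the counts. They did not share 1 order of arrays. X80130cds_f_at read 71.1 in carcinoid, 36.4 at 16 weeks and 12.4 at 8 weeks, the order seen for Acta2. X80130cds_i_at, of the same sequence, had the opposite order, at 41.5 in carcinoid, 60.5 at 16 weeks and 74.5 at 8 weeks, but as deposited 16 weeks was highest (47.3, 64.3 and 54.8 in the same order). Actc1 itself, on rc_AA866452_s_at, reached the floor on the 8-week array alone (1.37 in carcinoid, 2.07 at 16 weeks and 17.0 at 8 weeks), and the skeletal actin Acta1 reached it on none.

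Myh11 encodes the myosin heavy chain of smooth muscle, one of its most specific markers. The probe set S61948_s_at read 19.4 in carcinoid, 16.6 at 16 weeks and 3.13 at 8 weeks. The carcinoid and 16-week arrays differed by 1.17-fold. Against 8 weeks it was at least 1.56-fold higher in carcinoid and at least 1.34-fold higher at 16 weeks. The other Myh11 probe sets, X16261_i_at and X16262_s_at, stayed between 1.8 and 5.37, below the floor on every array, and give no fold. The Myh11 difference therefore rests on 1 probe set.

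Cnn1, calponin, binds actin and slows the myosin motor in differentiated smooth muscle. Its probe set D14437_s_at read 32.4 in carcinoid, 26.2 at 16 weeks and 7.3 at 8 weeks. It was 1.23-fold higher in carcinoid than at 16 weeks, and against 8 weeks at least 2.61-fold higher in carcinoid and at least 2.12-fold higher at 16 weeks. The pattern of a low 8-week array and close carcinoid and 16-week arrays was that of Myh11 S61948_s_at.

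Tagln, or SM22-alpha, is an actin-binding protein and an early marker of the smooth muscle lineage. M83107_g_at read 11.2 in carcinoid, 10.3 at 16 weeks and 13.9 at 8 weeks, so that it crossed the floor only at 8 weeks. The bounds came to at least 1.12-fold lower in carcinoid and at least 1.12-fold lower at 16 weeks, and as deposited the carcinoid array was the higher one (12.6 against 11.3 at 8 weeks). M83107_at, of the same sequence, was below the floor on each array, at 2.73 in carcinoid, 3.23 at 16 weeks and 2.17 at 8 weeks. Des, desmin, the intermediate filament protein that ties the contractile lattice together, was below the floor as well (5.87 in carcinoid, 2.47 at 16 weeks and 4.3 at 8 weeks).

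The first comparison set the carcinoid against 16 weeks of loxtidine. None of the 9 contractile probe sets at or above the floor on either array was at least 2-fold higher in carcinoid, and 1, Actg2, was at least 2-fold lower. Over all 5439 probe sets so measured, 9.38% were at least 2-fold higher and 9.67% at least 2-fold lower, so that the member counts lie near the background. Of the 9, 7 were above 0 and 2 below, with a median log2 difference of 0.39, against 0.01 over all probe sets, where 50.2% were above 0. The log2 differences of Tpm1 M15474cds_s_at (0.97), Acta2 rc_AA900769_s_at (0.70) and Actg2 (a bound of -1.08) exceeded the spread between probe sets of a gene, 0.62, and the other 6 did not. That spread holds no variation between animals, so it is no cut-off for a difference between groups. It was also taken from values measured on both arrays, which leaves out bounds such as that of Actg2. As deposited, and with scaling by the median, Tpm1 M15474cds_s_at was also past 2-fold, at 2.18-fold as deposited.

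The second comparison set the carcinoid against 8 weeks. Of 10 contractile probe sets, 4 were at least 2-fold higher in carcinoid, namely Tpm1 M15474cds_s_at, Tpm1 X02412_at, Cnn1 and Acta2 X06801cds_f_at. Actg2 was at least 2-fold lower. The shares over all 5620 probe sets were 14.6% higher and 14.0% lower. As deposited the members had 6 higher and 1 lower of 10, while the shares over all probe sets were 25.8% and 6.04%. The median log2 difference of the 10 was 0.81, against -0.03 over all probe sets, whose 10th and 90th percentiles were -1.18 and 1.25. That median moved with the setting, to 0.11 over 7 probe sets with the floor at 30.0, 0.11 over all 17 with log2 of value plus floor, and 1.30 over 10 as deposited, where the median of all probe sets was 0.42. Of the 10 values 6 are bounds, because the 8-week or the carcinoid array lay below the floor. Without Tpm1 the counts were 2 higher and 1 lower of 6. With the floor at 30.0, 1 of 7 was at least 2-fold higher, Tpm1 M15474cds_s_at, and 0 were lower, near the shares of 8.17% and 7.14% over all probe sets at that floor.

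The last comparison set 16 weeks of loxtidine against 8 weeks. Tpm1 X02412_at and Cnn1 were at least 2-fold higher at 16 weeks, 2 of 10, and 0 were at least 2-fold lower. Over 5586 probe sets these shares were 13.9% and 13.0%. As deposited the members had 3 higher and 0 lower of 9, while the shares over all probe sets were 21.8% and 6.36%. The median log2 difference was 0.30 for the members and -0.01 for all probe sets. With the floor at 30.0 the log2 difference of Tpm1 X02412_at was 0.72, short of 2-fold. Cnn1 was then below the floor on both arrays and gave no fold.

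**Figure D2:**
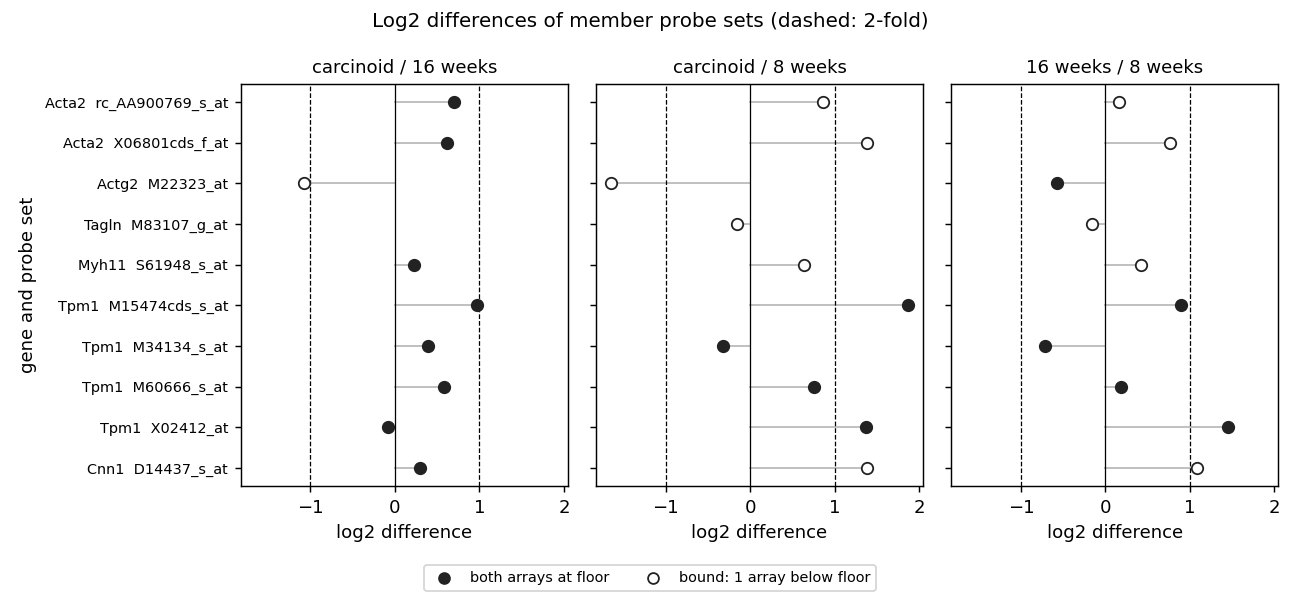
Log2 difference (horizontal axis) of the 10 contractile probe sets that reached the floor on at least 1 array, in 3 comparisons. Filled points were measured on both arrays, open points are bounds with 1 array below the floor, and dashed lines mark 2-fold. The counts past 2-fold are 0 higher and 1 lower for carcinoid against 16 weeks, 4 higher and 1 lower against 8 weeks, and 2 higher and 0 lower at 16 against 8 weeks.

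The comparisons share arrays and so are not independent. The 8-week array was the lowest of the 3 for 7 of the 10 contractile probe sets with signal, against 36.3% of all 6186 such probe sets, and in the deposited values for 8 of 10, against 50.8%. It is the array with the highest 3' to 5' ratios and a source field of its own, and the part of these in the low 8-week values was not tested. Carcinoid was the highest array for 6 of 10 (9 of 10 as deposited), against 32.5% of all probe sets (43.5% as deposited).

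Further genes of the contractile machinery of smooth muscle were taken from a list of 43, of which 25 were on the array with a single symbol. Here each gene is given by its brightest probe set. In carcinoid against 16 weeks, 0 of 17 genes with signal were at least 2-fold higher and 1 was lower (9.41% and 9.29% of 3295 genes in all). Against 8 weeks, 3 of 17 were higher in carcinoid and 0 lower (14.6% and 13.7% of 3370 genes). At 16 against 8 weeks, 3 of 19 were higher and 2 lower (14.0% and 12.9% of 3345 genes). The medians of this list were -0.15, -0.14 and 0.15, against 0.01, -0.02 and 0.01 over all genes.

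The largest measured difference of that list in a comparison of the carcinoid was in Myl9. Myl9, the regulatory light chain of smooth muscle myosin, read 72.3 in carcinoid, 58.8 at 16 weeks and 20.8 at 8 weeks on S77900_g_at. It was 3.47-fold higher in carcinoid than at 8 weeks, 2.82-fold higher at 16 than at 8 weeks and 1.23-fold higher in carcinoid than at 16 weeks. Its order of arrays was that of Cnn1 and Acta2. The second Myl9 probe set reached the floor only in carcinoid (17.8, against 8.77 at 16 weeks and 8.5 at 8 weeks).

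The other genes of that list past 2-fold in carcinoid over 8 weeks encode subunits of the phosphatase that removes the activating phosphate from this light chain. Ppp1r12a, the targeting subunit, read 47.7 in carcinoid, 41.4 at 16 weeks and 22.8 at 8 weeks, and was 2.1-fold higher in carcinoid than at 8 weeks. Ppp1cb, the catalytic subunit, was at least 3.37-fold higher in carcinoid than at 8 weeks (41.7 against 10.8), and was picked for mention after its values were seen. On these probe sets neither differed between carcinoid and 16 weeks by more than 1.15-fold. On U50185_g_at for Ppp1r12a and S78218_at for Ppp1cb, the carcinoid array alone reached the floor, by at least 2.09-fold over 16 weeks for Ppp1r12a and at least 2.23-fold for Ppp1cb. The small GTPase Rhoa, which restrains that phosphatase, was 2.45-fold lower in carcinoid than at 16 weeks (13.9 against 33.9). It was low at 8 weeks too (0.45), at least 2.74-fold higher at 16 than at 8 weeks and at least 1.12-fold higher in carcinoid than at 8 weeks. Cacna1c, the pore of the calcium channel that starts contraction, was lower in carcinoid than at 8 weeks (31.3 against 62.5), just short of 2-fold and so not counted there. Cald1, another actin-binding regulator, was below the floor on every array, and Mylk and Vcl had no probe set with that symbol alone.

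Several genes of the non-muscle cytoskeleton were also lowest at 8 weeks. Among them the actin Actg1 was the only actin or tropomyosin. Its single probe set, X52815cds_f_at, ends in f and is shared by a gene family, so that signal cannot be assigned to Actg1 alone. On their brightest probe sets Actb, Tpm3 and Tpm4 were highest at 8 weeks after quantile normalization. Of 9 non-muscle cytoskeleton genes with signal, 5 were at least 2-fold higher in carcinoid than at 8 weeks and 5 at 16 than at 8 weeks, with none lower and medians of 1.0 and 1.08. Between carcinoid and 16 weeks, 0 were higher and 0 lower (median -0.09). Actg1, a cytoplasmic actin present in every cell, was 2.15-fold higher in carcinoid than at 8 weeks (327 against 152), and Pfn1, which feeds actin monomers to growing filaments, was 3.28-fold higher (470 against 144). Tmsb4x, which holds actin monomers in reserve, was 2.0-fold higher and the tubulin Tubb5 3.05-fold higher in the same comparison. Actb, the other cytoplasmic actin, was 1.35-fold lower (122 in carcinoid and 165 at 8 weeks), but 1.36-fold higher as deposited.

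The non-muscle tropomyosins resembled Tpm1 in that their probe sets disagreed. For Tpm4, J02780_at read 41.1 in carcinoid, 25.9 at 16 weeks and 13.9 at 8 weeks, whereas rc_AI105374_at had the reverse order of 24.7, 41.2 and 49.2 (as deposited 27.7, 44.3 and 38.0, with carcinoid still lowest and 16 weeks highest). For Tpm3, rc_AA859305_s_at was 2.36-fold higher in carcinoid than at 8 weeks (146 against 61.8), and S82383_s_at was 1.24-fold lower (125 against 154), though 1.46-fold higher as deposited.

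Markers of other cell types that the samples could hold were set beside the members. Fibroblast and matrix genes had 2 higher and 1 lower of 18 in carcinoid against 16 weeks, 3 higher and 5 lower of 17 in carcinoid against 8 weeks, then 1 higher and 3 lower of 16 at 16 against 8 weeks (medians 0.10, -0.32 and -0.38). Their summed intensity was 857 in carcinoid, 897 at 16 weeks and 1835 at 8 weeks, where 1 matrix gene, Dcn, accounted for 262, 317 and 1090. The mesenchymal filament gene Vim was below the floor on every array. Single genes of this list differed in order. The matrix gene Col3a1 read 52.3 in carcinoid, 80.8 at 16 weeks and 144 at 8 weeks, the opposite of the order of Acta2. Sparc had that order too (38.5, 107 and 116), but as deposited 16 weeks was highest (44.1, 114.7 and 81.8). Pdgfra, a receptor of fibroblasts, read 39.1 in carcinoid, 25.9 at 16 weeks and 15.1 at 8 weeks, the order of Acta2 and Cnn1, and Timp1, a protease inhibitor picked after its values were seen, read 40.2, 40.7 and 18.7.

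Pericyte and endothelial genes had 0 higher and 3 lower of 9 in carcinoid against 16 weeks, 0 and 4 of 9 when carcinoid was set against 8 weeks, 1 and 2 of 10 at 16 against 8 weeks (medians -0.69, -0.67 and -0.21). Abcc9, the channel regulator of vascular and visceral muscle and of pericytes, was 6.93-fold lower in carcinoid than at 16 weeks (14.2 against 98.2) and 6.14-fold lower in carcinoid than at 8 weeks (14.2 against 87.0). Abcc9 was lowest in carcinoid, as Actg2 was and Acta2 was not, but unlike Actg2 it was highest at 16 weeks. These values are from D83598_at, the brightest of 3 Abcc9 probe sets, and the others are not given here. Its carcinoid value lies within the range of the no-target controls. The summed intensity of this list was 146 in carcinoid, 302 at 16 weeks and 327 at 8 weeks, and the endothelial marker Vwf was below the floor on all arrays.

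The next lists are given in the order carcinoid against 16 weeks, carcinoid against 8 weeks and 16 against 8 weeks. The striated muscle list had medians of 0.01, -0.12 and -0.15, which cannot show or exclude cross-reaction between muscle genes. Its counts were 2 higher and 2 lower of 15, 0 and 3 of 17, and 1 and 1 of 15. Its summed intensities were 380 in carcinoid, 355 at 16 weeks and 447 at 8 weeks, although no striated muscle belongs to the stomach. At or above the floor on all 3 arrays were 10 of its 22 genes, against 1 of the 8 members, Tpm1. By the same count, 1746 genes outside the members were so, of 4736 singly named genes in all. Ckm read 14.6 in carcinoid, 26.4 at 16 weeks and 48.2 at 8 weeks. In the same order Myh7 read 19.9, 25.2 and 47.6, Casq1 15.8, 39.3 and 33.9, and Myl1 17.4, 42.6 and 14.1. The source of these signals was not tested. Interstitial cell, neuron and glia genes had medians of 0.02, 0.32 and 0.26, with 1 higher and 0 lower in each comparison (of 9, 7 and 5 genes). Gastric epithelial genes had medians of 0.34, 0.55 and 0.27, with 3 higher and 0 lower of 13, 4 and 1 of 13, and 2 and 1 of 12, and sums of 7116 in carcinoid, 8006 at 16 weeks and 7689 at 8 weeks. The mucin Muc5ac of surface mucous cells read 213 in carcinoid, 168 at 16 weeks and 15.8 at 8 weeks, the order of Acta2 and Cnn1, and was 13.4-fold higher in carcinoid than at 8 weeks. Keratin 8, Krt8, was 4.89-fold higher in carcinoid than at 8 weeks (203 against 41.5), and the proton pump subunit Atp4b, the 1 gene counted as lower, was 2.06-fold lower (117 against 240) and was picked after its values were seen. Endocrine genes had medians of -0.68, -0.84 and -0.08, with 0 higher and 1 lower of 9, 0 and 5 of 10, and 0 and 2 of 11. The part of any of these cell types in the member values was not tested.

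**Figure D3:**
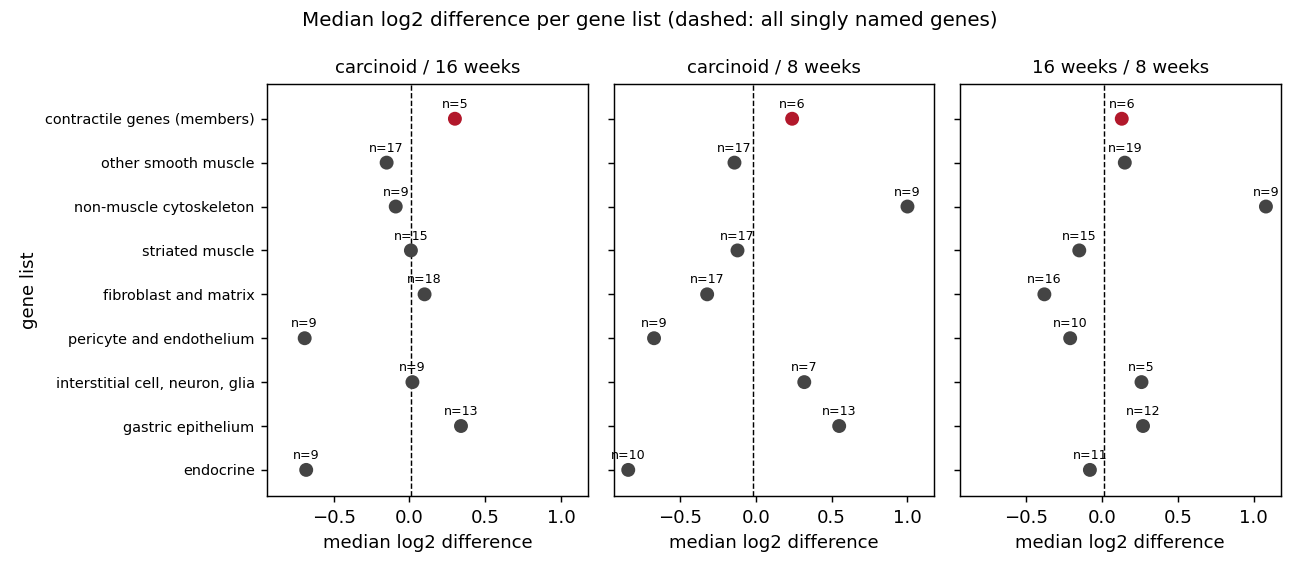
Median log2 difference of each gene list (horizontal axis), over its n genes at or above the floor on at least 1 array of the comparison, with the median of all singly named genes dashed. The contractile genes, 1 value per gene, lie at 0.30, 0.24 and 0.13, while non-muscle cytoskeleton genes lie at 1.0 and 1.08 in the comparisons with 8 weeks.

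With 1 value per gene, from its brightest probe set, the contractile genes had medians of 0.30 over 5 genes, 0.24 over 6 and 0.13 over 6 in the same order of comparisons. The genes whose profile over the 3 arrays lay nearest to the mean profile of the 4 Tpm1 probe sets with signal throughout were Dgat1, Or2t1, Car2, Kyat1 and Dnajc5, with root mean square distances of 0.005 to 0.032 on the log2 scale. They were taken from 1746 genes, and the likeness rests on 3 points, so small distances are easily found. The mean profile also hides the disagreement of the 4 probe sets, since M34134_s_at was highest at 8 weeks after normalization. It is no evidence of a shared role with Tpm1.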

How the data were processed

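The 3 samples were each measured on 1 Affymetrix rat expression array, with groups taken from the sample descriptions. The table deposited by the authors holds 1 linear intensity per probe set and array. How it was calculated and scaled is not given in the sources used here. Intensities carry no depth, and the number of arrays limits the precision. Gene symbols came from the platform annotation, which gave several symbols for 308 of the 8740 non-control probe sets and none for 1426. These were not named. No sequence of the probe sets or members was used here.

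The 3 arrays were quantile normalized, floored at 12.4 and compared on the log2 scale with Python 3.11.15, pandas 2.3.3 and numpy 2.4.6. No significance test was run. Genes outside the members were represented by the probe set brightest on average as deposited. Named genes of the other 8 lists were up to 4 per list with the largest difference measured on both arrays in a comparison of the carcinoid, plus Actb, Actg1, Tpm3, Tpm4, Myl9, Mylk, Cald1, Vcl, Vim, Acta1 and Actc1. Some of these are not printed. The members and lists were chosen with earlier results of these data known. Normalization and counting were tested on simulated copies of the 8-week array with known differences. These were planted in bright probe sets only and were larger than most of those reported here. Recovery near the floor, where most members lie, was not tested. Alternatives were the values as deposited, scaling by the median, floors of 4.2 and 30.0, log2 of value plus floor, 1 probe set per gene, and only probe sets without a suffix letter. Leaving out Tpm1 and adding the probe sets shared with Actc1 were chosen after seeing the data.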

Additional observations from a re-analysis of the deposited data

How the results depend on the processing

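Counts of contractile probe sets past 2-fold rest on few values near the floor. For carcinoid against 16 weeks, 1 of 10 was higher as deposited (12.2% of all) and 1 of 9 with scaling by the median (9.71%), against 0 of 9 (9.38%). With the floor at 30.0, 0 of 6 were lower (2.95% of all), and with log2 of value plus floor 0 of 17 (5.26%). As reported above, 1 of 9 was lower (9.67%). At the floor of 30.0, Actg2 was below it on both arrays. For carcinoid against 8 weeks, 4 of 10 were higher (14.6% of all). It was 1 of 7 with the floor at 30.0 and 1 of 2 without suffixed probe sets. With 1 probe set per gene 2 of 6 were higher, and without Tpm1 also 2 of 6. Higher counts came with the floor at 4.2 (6 of 12, 22.1% of all), scaling by the median (5 of 10, 16.1%) and the deposited values (6 of 10, 25.8%). Adding the probe sets shared with Actc1 gave 5 of 14. With the floor at 30.0, 0 of 7 were lower (7.14% of all), against 1 of 10 (14.0%). For 16 against 8 weeks, 2 of 10 were higher (13.9% of all). It was 5 of 12 with the floor at 4.2 and 0 of 5 with the floor at 30.0. With log2 of value plus floor it was 1 of 17 (8.04% of all). It was 1 of 6 with 1 probe set per gene, 1 of 2 without suffixed probe sets and 1 of 6 without Tpm1. The higher floor shrinks each bound by construction, since the dim array is raised to 30.0. The settings that drop probe sets leave fewer of them to count. The cause of the other moves was not tested. Over all probe sets the share higher moved with the floor too. For 16 against 8 weeks the 5 of 12 stood beside 21.6% of all and the 0 of 5 beside 7.02%. For carcinoid against 8 weeks the 1 of 7 at the floor of 30.0 stood beside 8.17%. Without suffixed probe sets, which leaves Actg2 and Tpm1 X02412_at, the median log2 difference was -0.58 for carcinoid against 16 weeks, against 0.39, and -0.14 for carcinoid against 8 weeks, against 0.81. Over single probe sets, 123 of the recomputed differences stayed within the spread between probe sets and 10 moved further, and no difference past 2-fold changed sign. Changing the floor, or adding it to each value, cannot turn a sign, so only the deposited values and scaling by the median could have done so. Against 8 weeks, Acta2 X06801cds_f_at in carcinoid ran from 0.10 with the floor at 30.0 to 2.82 with the floor at 4.2.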
